A study of Arabidopsis thaliana with 6 samples.

Results

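PORB, GSA1, HEME2 and CHLM encode enzymes at 4 steps of the tetrapyrrole pathway, which leads from glutamate through aminolevulinate and the porphyrins to chlorophyllide, the immediate precursor of chlorophyll. Their transcripts were measured in whole seedlings of Arabidopsis thaliana grown in darkness for 4 days on MS medium. The members were chosen by gene symbol, as the probe sets that the platform annotation assigns to PORB, GSA1, HEME2 or CHLM and to no other gene. Each symbol had 1 such probe set, giving 4 of the 22746 probe sets on the array that are not controls, and all 4 passed the filter on weak signals. Wild type (Col-0) was compared with the insertion line pif1-2 (Salk_072677) on 3 Affymetrix ATH1 arrays per genotype, a 1-colour design with the RNA of 1 sample per array. Before the dark period the seeds of both groups were kept in the cold for 4 days and received light for 1 hour, and growth was at 21 °C, per the labels. The sample titles name 1 allele for the mutant, whereas the allele in a further label field changes with every sample. The PIF1 mRNA of the mutant is described as very low by the labels.

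In the first part of the pathway, a glutamate-derived semialdehyde is converted to aminolevulinate, and several of these units are joined into a porphyrin ring whose side chains are then trimmed and oxidised. Insertion of magnesium commits the ring to chlorophyll, and methylation, ring closure and vinyl reduction turn it into protochlorophyllide. In flowering plants the next step needs light, so dark-grown seedlings hold protochlorophyllide bound to its oxidoreductase in etioplasts. PIF1 is a basic helix-loop-helix factor that interacts with phytochrome, and seedlings without it are known to accumulate excess protochlorophyllide in the dark and to bleach when moved into light. The comparison of the genotypes asks which transcripts differ in darkness when PIF1 is reduced.

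Levels are given as MAS5 signals on a linear scale, rescaled so that the 2% trimmed mean of every array was 500. Median deposited signals lay between 184 and 199 on the 6 arrays. Between the groups, 2 of 17695 probe sets (0.0113%) passed a limma adjusted p of 0.05, and neither was a member. On the first principal component pif1-2 replicate 3 was far from the rest, with a score of 47.9 against -13.2 to -5.23 on the others. It also had the highest ratio of 3-prime to 5-prime signal for actin, 8.07 against 3.53 to 5.17, and for ubiquitin, 2.83 against 2.03 to 2.28, whereas its GAPDH ratio of 1.32 lay within the range of 1.20 to 1.34 on the others. The second component (23.5% of the variance, against 26.9% for the first) set replicate 1 of both groups apart. Wild type replicate 1 lay at 22.4 and pif1-2 replicate 1 at 27.4, against -30.9 to -0.88 on the others. On the third component it was pif1-2 replicate 2 that lay apart, at 42.6 against -17.8 to -1.97, and its deposited signal for the ribosomal RNA control was 545.5 against 5877 to 13936. The genotype could not be checked by the target gene, since 0 named probe sets belong to PIF1 (AT2G20180, listed as PIL5 in the gene table) or to At2g20810, which the series title prints and the gene table lists as GAUT10. The labelled tissue was checked with root markers, of which 3 of 10 had a named probe set, all past the filter, and with markers of light-exposed green tissue, of which 1 of 6 had: HYH, a factor of the light response, at signals of 6.48 to 57.4, under the filter.

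Of the 4 members, 3 had lower mean signals in pif1-2 than in wild type and CHLM had a higher mean, and none passed the threshold. The ratios of mean signals, pif1-2 over wild type, were 0.734 for PORB, 0.825 for HEME2, 0.857 for GSA1 and 1.09 for CHLM. The groups of arrays overlapped in 3 of the genes and did not overlap in HEME2, a separation towards lower values seen for 6.58% of all probe sets tested. As whole seedlings were sampled, fewer cells of a type and less RNA per cell cannot be told apart.

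**Figure D1:**
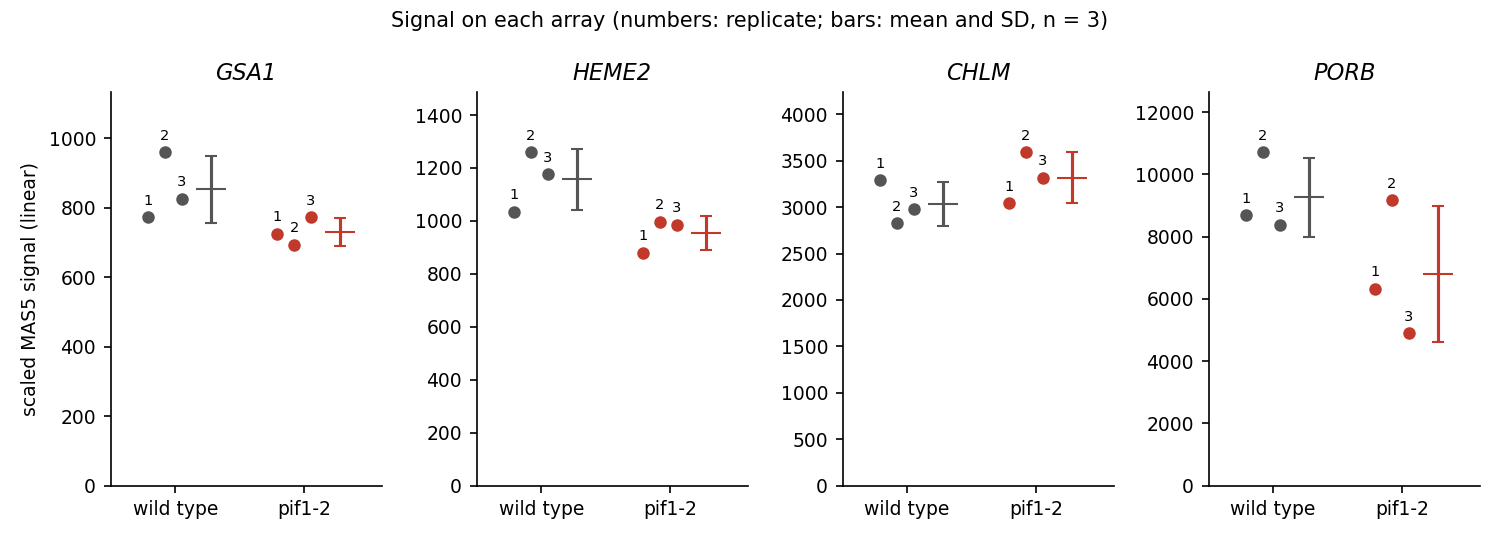
Scaled MAS5 signal (linear axis from 0) of each gene on each array, with replicate numbers beside the points and mean and SD (n = 3) as bars. In HEME2 all pif1-2 points lie below all wild-type points, and in PORB the point of pif1-2 replicate 2, at 9171, lies among the wild-type points of 8379 to 10714 while replicates 1 and 3 lie at 6330.3 and 4898.

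GSA1 (AT5G63570, probe set 247392_at) encodes a glutamate-1-semialdehyde aminotransferase, which makes aminolevulinate, the building block of all tetrapyrroles. Its signals were 772, 960.0 and 825 on wild-type replicates 1, 2 and 3, and 725, 693 and 772 on pif1-2 replicates 1, 2 and 3. All 3 pif1-2 arrays lay below the wild-type mean, but the highest of them was level with the lowest wild-type array, so the groups overlapped. The wild-type mean was 852 ± 97.0 (SD, n = 3) and the pif1-2 mean was 730.2 ± 40.1. The log2 fold change, pif1-2 minus wild type on the scale of log2(signal + 16), was -0.21 (SE 0.14, 95% interval -0.53 to 0.10, limma adjusted p = 0.778). Without wild type replicate 2, the highest array, it was -0.13.

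HEME2 (AT2G40490, probe set 255826_at) encodes a uroporphyrinogen decarboxylase, which trims the acetate side chains of the first closed ring of the pathway. Its signals were 1034, 1260.2 and 1176 in wild type and 879.5, 998 and 985 in pif1-2, in the order of the replicate numbers. The lowest wild-type array lay just above the highest pif1-2 array, so that the groups did not overlap. Complete separation towards lower values was seen for 6.58% of all probe sets tested. Mean signals were 1157 ± 114 (SD, n = 3) and 954 ± 64.9, and the log2 fold change was -0.27 (SE 0.14, 95% interval -0.58 to 0.036, limma adjusted p = 0.702). With each array left out in turn the log2 fold change ranged from -0.35 to -0.21.

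CHLM (AT4G25080, probe set 254105_at) encodes the methyltransferase that acts on magnesium-protoporphyrin IX, a step on the branch to chlorophyll alone. On wild-type replicates 1, 2 and 3 the signals were 3291, 2827 and 2977, and on the pif1-2 replicates they were 3044, 3593 and 3314. The groups overlapped, since pif1-2 replicate 1 lay between wild-type replicates 3 and 1, but 0 of the 3 pif1-2 arrays were below the wild-type mean. Means of 3031 ± 237 (SD, n = 3) and 3317 ± 274 gave a log2 fold change of 0.13 (SE 0.13, 95% interval -0.16 to 0.41, limma adjusted p = 0.859). The value was 0.070 without pif1-2 replicate 2 and 0.080 without wild type replicate 2, and it was positive each time 1 array was left out.

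PORB (AT4G27440, probe set 253871_at) encodes a protochlorophyllide oxidoreductase, the light-dependent enzyme that reduces protochlorophyllide to chlorophyllide and holds the pigment in etioplast membranes. Wild-type signals were 8691, 10714 and 8379 on replicates 1, 2 and 3, and pif1-2 signals were 6330.3, 9171 and 4898. Replicates 1 and 3 of pif1-2 lay below every wild-type array, whereas replicate 2 lay between wild-type replicates 1 and 2. The means were 9261 ± 1268 (SD, n = 3) and 6799.8 ± 2175, so that the coefficient of variation was 13.7% in wild type and 32.0% in pif1-2. The log2 fold change was -0.48 (SE 0.20, 95% interval -0.92 to -0.046, unadjusted p = 0.0330, limma adjusted p = 0.637). The interval is for this gene alone and is not adjusted for the number of probe sets tested, and lower values at an unadjusted p under 0.05 were found for 4.36% of all probe sets.

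The estimate for PORB rested on which pif1-2 arrays were used. It was -0.27 (limma adjusted p = 0.748) without pif1-2 replicate 3 and -0.72 (adjusted p = 0.445) without pif1-2 replicate 2. The unadjusted p was 0.156 without pif1-2 replicate 3 and 0.00146 without pif1-2 replicate 2. These pif1-2 arrays are the ones described above as standing apart, replicate 3 with the actin ratio of 8.07 and replicate 2 with the low ribosomal RNA signal. The part of RNA quality in the result was not tested. The summed signal of the 3 root markers measured, EXPA7, EXPA18 and AT1G30870, was 431, 821 and 891 on wild-type replicates 1, 2 and 3 and 417, 858 and 527 on the pif1-2 replicates. Replicates 1 and 3 of pif1-2, the arrays low in PORB, thus had lower root marker sums than replicate 2. In wild type, replicate 1, with a PORB signal of 8691, had the lowest sum. Replicate 3 of wild type, with the lowest PORB signal of its group (8379), had the highest sum of all arrays. The part of root tissue in the result was not tested.

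**Figure D2:**
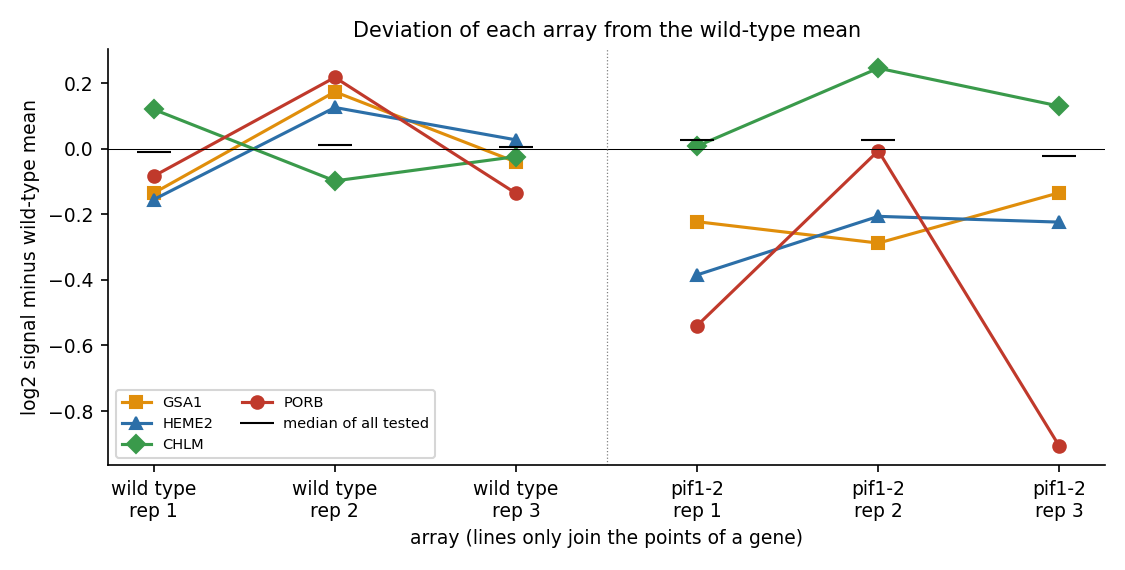
Log2 signal of each gene on each array minus the gene's wild-type mean, with the median of all probe sets tested as black dashes. On the pif1-2 arrays PORB lies at -0.54, -0.0055 and -0.91, HEME2 and GSA1 lie between -0.38 and -0.13, and CHLM lies above 0, while the median of all probe sets stays between -0.023 and 0.028.

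The members differed in how tightly their replicates lay. The residual SD of the log2 signal within groups was 0.12 for GSA1, HEME2 and CHLM, smaller than for most probe sets, as 12.9%, 12.3% and 10.3% of those tested had a smaller value. For PORB it was 0.35, larger than for 75.1% of the probe sets tested, whose median was 0.24. These shares are over probe sets of every signal level, and no comparison among probe sets of like signal was made. The order of arrays also differed among the members, as PORB, HEME2 and GSA1 were all highest in wild-type replicate 2, the array on which CHLM was lowest. Within pif1-2, replicate 3 was the lowest array for PORB and the highest for GSA1, replicate 1 was the lowest for HEME2 and CHLM, and replicate 2 was the lowest for GSA1 and the highest for the other 3.

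**Figure D3:**
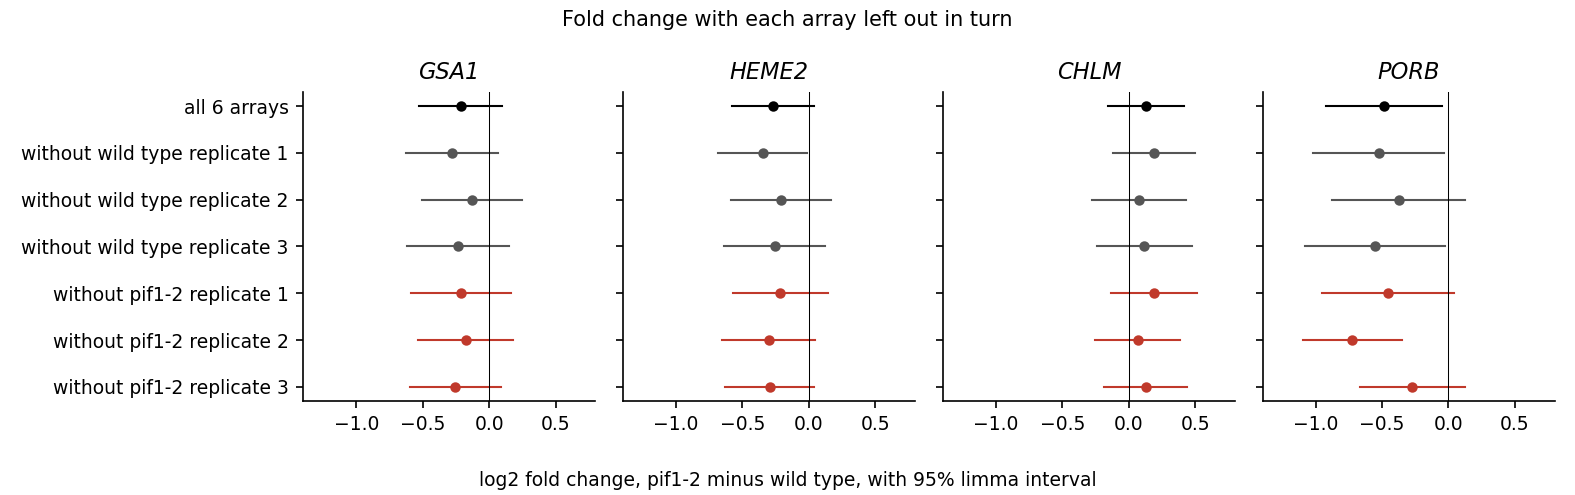
Log2 fold change of each gene (pif1-2 minus wild type) with its 95% limma interval, from all 6 arrays and with each array left out in turn. The sign stays the same in every row for all 4 genes, and PORB spans the widest range, from -0.72 to -0.27.

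Whether members changed unequally was compared within arrays, where the scaling of the array cancels, for all 6 pairs of members. The log2 ratio of PORB to CHLM was lower in pif1-2 by a difference of -0.61. Relative to its wild-type mean, this ratio was -0.20, 0.32 and -0.11 on the wild-type arrays and -0.55, -0.25 and -1.04 on the pif1-2 arrays, so that the groups did not overlap. For HEME2 against CHLM the difference was -0.40, with -0.28, 0.22 and 0.051 in wild type and -0.39, -0.45 and -0.35 in pif1-2, also without overlap. Both had p = 0.1 in an exact two-sided permutation test, the smallest that 3 arrays against 3 can give, and an adjusted p of 0.3 over the 6 pairs. This test therefore cannot go below 0.05 with these arrays, and no model-based test of the pairs was run. The ratios of PORB and of HEME2 to CHLM share the CHLM values, so they are not separate observations. How often ratios of other probe sets separate between the groups was not computed.

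The other pairs overlapped between the groups. GSA1 against CHLM differed by -0.34 (exact permutation p = 0.2, adjusted 0.4), and PORB against GSA1 by -0.27 (exact permutation p = 0.6, adjusted 0.7). The PORB to GSA1 difference was -0.018 without pif1-2 replicate 3 and -0.55 without pif1-2 replicate 2. PORB against HEME2 differed by -0.21 (exact permutation p = 0.7, adjusted 0.7), which became 0.023 without pif1-2 replicate 3. GSA1 and HEME2 differed by the least, 0.057 (exact permutation p = 0.5, adjusted 0.7), and their ratio lay between -0.082 and 0.16 of its wild-type mean on every array.

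The wider pathway was described with a list of 32 genes from glutamyl-tRNA to chlorophyll, of which 12 had a named probe set and 11 were tested. In pif1-2, 0 of the 11 were called lower and 0 higher at an adjusted p of 0.05, by limma over all probe sets. At an unadjusted p under 0.05, 2 of the 11 were lower, PORB and the geranylgeranyl reductase AT1G74470, against 4.36% of all probe sets, and 0 were higher, against 3.31%. The count of 2 became 1 without wild type replicate 2, pif1-2 replicate 1 or pif1-2 replicate 3, and 3 without wild type replicate 1 or pif1-2 replicate 2. The groups did not overlap, towards lower values, for 3 of the 11 (HEME2, HEMB2 and AT1G74470), against 6.58% of all. The median log2 fold change of the 11 was -0.23, with 9 negative, beside a median of 0.00095 over all probe sets tested, of which 49.9% were negative. The 7 genes other than the 4 members had 6 negative values and a median of -0.23. These counts are description only, as the list was chosen with earlier results known and its genes share the same arrays.

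**Figure D4:**
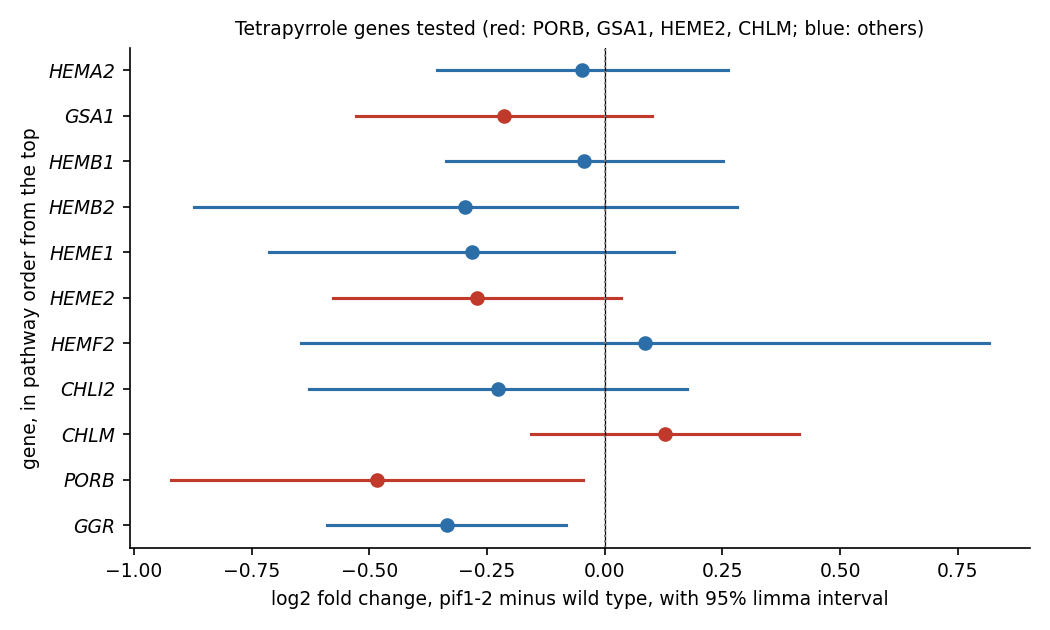
Log2 fold change (pif1-2 minus wild type) of the 11 tetrapyrrole genes tested, with 95% limma intervals, in pathway order from the top, and the median of all probe sets as a dotted line close to 0. PORB at -0.48 and the geranylgeranyl reductase (GGR, AT1G74470) at -0.34 have intervals that do not reach 0, and CHLM at 0.13 and HEMF2 at 0.085 lie on the positive side.

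Neighbouring steps were followed in pathway order. HEMA2, a glutamyl-tRNA reductase, acts just before GSA1, and its log2 fold change was -0.047 (SE 0.14). HEMB1 and HEMB2, aminolevulinate dehydratases, act just after it, and their log2 fold changes were -0.043 (SE 0.13) and -0.30 (SE 0.26). HEMB2 was weak, with signals of 96.2, 99.9 and 117 in wild type and 81.1, 89.9 and 75.0 in pif1-2, lower on each pif1-2 array than on each wild-type array. HEMA3, a further glutamyl-tRNA reductase, was under the filter, at 5.27 to 83.3.

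HEME1 encodes the other uroporphyrinogen decarboxylase, and its log2 fold change of -0.28 (SE 0.20) was close in size to that of HEME2. Its arrays were more scattered, at 427, 576 and 553 in wild type and 365, 561 and 361 in pif1-2, with pif1-2 replicate 2 inside the wild-type range as for PORB. HEMF2, a coproporphyrinogen oxidase homologue, had 0.085 (SE 0.33) and the widest interval of the list, -0.65 to 0.82. CHLI2, a subunit of the magnesium chelatase that acts before CHLM, stood at -0.23 (SE 0.18), with signals of 278, 255 and 303 in wild type and 205, 297 and 213 in pif1-2. In CHLI2, too, pif1-2 replicate 2 lay among the wild-type arrays and replicates 1 and 3 below them.

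AT1G74470, the geranylgeranyl reductase that supplies the phytol chain after the PORB step, was measured at 12052, 11998 and 12171 in wild type and 9089.6, 10379.7 and 9269.8 in pif1-2, with all pif1-2 arrays below all wild-type arrays. Its log2 fold change was -0.34 (SE 0.12, limma adjusted p = 0.574). Taken per array and as a deviation from wild type, the median of the 11 genes was -0.083, 0.014 and 0.028 on the wild-type arrays and -0.31, -0.0055 and -0.36 on the pif1-2 arrays. Replicate 2 of pif1-2 thus lay within the wild-type range, and replicates 1 and 3 below it.

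Outside the route to chlorophyll few genes could be followed. On the heme, siroheme and bilin branch, 1 of 9 genes was tested, SIRB, the sirohydrochlorin ferrochelatase of siroheme synthesis, with a log2 fold change of 0.083 (SE 0.14). For the chlorophyll cycle and breakdown, 1 of 9 was tested, NOL, a subunit of chlorophyll b reductase, with -0.014 (SE 0.19). The root markers EXPA7, EXPA18 and AT1G30870 had log2 fold changes of 0.17 (SE 0.41), -0.22 (SE 0.25) and -0.42 (SE 0.31). By limma 0 of these 5 genes were called at an adjusted p of 0.05, and 0 had an unadjusted p under 0.05.

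**Figure D5:**
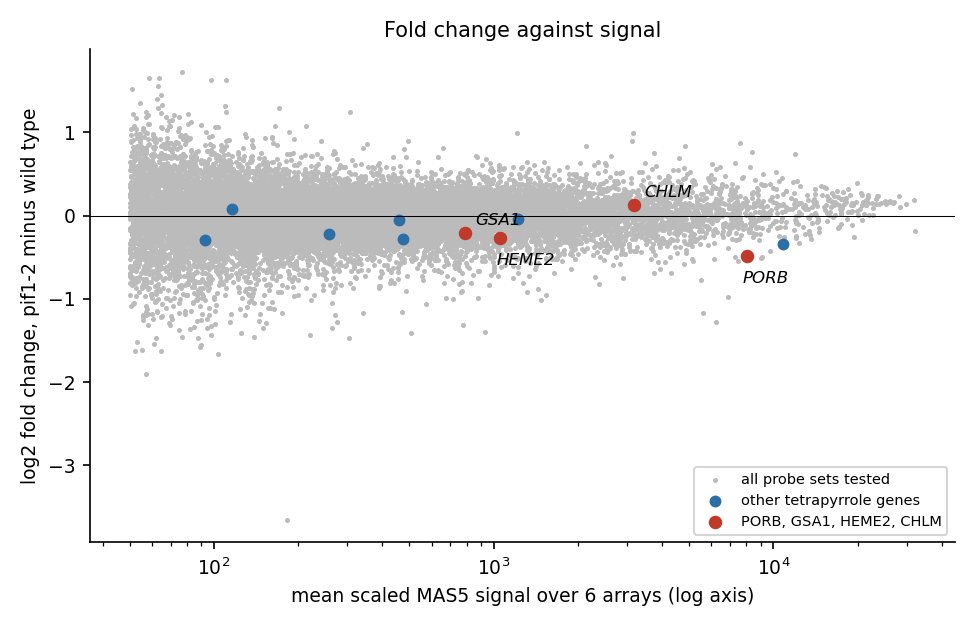
Log2 fold change (pif1-2 minus wild type) against the mean scaled signal over 6 arrays (log axis) for all 17695 probe sets tested, with the 4 genes in red and the other tetrapyrrole genes in blue. PORB at -0.48 lies near the lower edge of the probe sets around it, and the 3 others lie inside the bulk; signals of different probe sets do not rank transcript abundance.

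The genes most like each member in profile were found by the root-mean-square difference between log2 profiles centred on their own mean, over 6 arrays and 9980 other probe sets with 1 gene. For PORB these were AT3G61700 (0.060), AT5G45590 (0.066) and AT3G61610 (0.092), where the median over all candidates was 0.43. Their log2 fold changes were -0.53, -0.38 and -0.49. GSA1 was nearest to AT2G34840 (0.028), AT4G27280 (0.035) and MDH (AT3G47520, 0.045), a malate dehydrogenase. HEME2 was nearest to AT5G14730 (0.037), AT2G47610 (0.041) and AT1G79390 (0.043), and CHLM to CuAO1, a copper amine oxidase (0.032), ATG8F, an autophagy protein (0.034), and AT5G27280 (0.036). With 6 arrays and this many candidates, close profiles are found for almost any gene.

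Among the tetrapyrrole genes themselves, GSA1 and HEME2 were each other's nearest, at a difference of 0.085 and at ranks 54 and 53 of the 9980 candidates. For CHLM the nearest was HEMA2, at 0.13 and rank 789. A flat profile would lie nearer to CHLM, at 0.11, the root-mean-square size of its own centred profile. For PORB the nearest was HEME1, at 0.19 and rank 113. No member was thus among the 3 nearest of another.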

How the data were processed

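Whole-seedling RNA of 6 samples was labelled with biotin (20 µg per sample, per the labels' protocols) and hybridised to ATH1 arrays. The deposited table holds an intensity for each probe set, computed by MAS5 per the submitters' processing notes. For the MAS5 version and a genome build, the sources used here give nothing. Trimmed means of 500 in the deposited values show that the arrays had been scaled by the authors. Group and replicate came from sample titles, as the allele in a further field changes with every sample.

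Without the 64 controls, signals were rescaled per array to a 2% trimmed mean of 500. Probe sets with a mean under 50 (5051) were left out. The other 17695 were compared as log2(signal + 16) with limma 3.58.1 in R 4.3.3 (lmFit, eBayes with trend), two-sided, Benjamini-Hochberg adjusted. The fit was tested on simulated data. Of the probe sets, 13513 carried 1 gene name and 503 several. Genes were matched through the RefSeq table of TAIR10.1, used for names only. Named genes were the members, all tested genes of the lists, and per member the 3 nearest profiles. Members and lists were chosen with earlier results of these data known. The labels call the replicates biological but do not say whether they were separate cultures. A p-value here thus reflects only the spread among these samples. Alternatives covered the pseudocount, scaling, filter, variance model, array weights, a replicate block and leaving out each array. The number of arrays limits the precision.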

Additional observations from a re-analysis of the deposited data

How the results depend on the processing

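Over 18 alternatives the log2 fold changes of PORB (-0.72 to -0.27), GSA1 (-0.28 to -0.13), HEME2 (-0.35 to -0.21) and CHLM (0.070 to 0.19) kept their sign. The filter, the variance model and the replicate block could not alter these fold changes, so those alternatives bear only on the p-values. Over all 18 alternatives, 0 members passed an adjusted p of 0.05. The count of tetrapyrrole genes called was 0 in each, and the list median ran from -0.30 to -0.18. The number of probe sets called in all, 2, became 1 with median centring, quantile normalization, no filter or no intensity trend, 8 with array weights, and 0 to 7 with 1 array left out (0 when wild type replicate 2 was omitted, 7 for wild type replicate 1). Blocking on the replicate number gave 45, and the adjusted p was 0.136 for PORB, 0.444 for HEME2, 0.620 for GSA1 and 0.757 for CHLM. The numbers were not taken as pairs, since the labels number biological replicates without saying that they were paired. Deviations of same-numbered arrays correlated at 0.25, 0.099 and 0.088. Each array correlated best with its own number, a hint of pairing from the data and not from the design. Among the member pairs, PORB against HEME2 turned from -0.21 to 0.023 without pif1-2 replicate 3 (range -0.42 to 0.023 with 1 array left out). The other 5 pairs kept their sign in the 10 alternatives run. GSA1 against HEME2 (0.0041 without pif1-2 replicate 1) and PORB against GSA1 (-0.018 without pif1-2 replicate 3) did so only barely. The 2 tetrapyrrole genes lower at an unadjusted p under 0.05 became 1 without trend and 3 with array weights. The alternative of a gene's other probe sets could not be run, as each member has 1. The unadjusted limma p of PORB lay above 0.05 without trend (0.0861) and without filter (0.0605). It also did so without wild type replicate 2 (0.128), pif1-2 replicate 1 (0.0688) or pif1-2 replicate 3 (0.156). It fell to 0.00125 with the replicate block, 0.0176 with array weights and 0.0180 with quantile normalization. For HEME2 the unadjusted limma p, 0.0782 in the main fit, fell to 0.0465 without filter and 0.0279 with array weights. Without wild type replicate 1 it was 0.0417. The cause of these shifts was not tested.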
